A study of Mus musculus with 2 samples.

Results

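Desmosome genes were examined in mite-induced dermatitis skin with and without topical zinc-alpha-2-glycoprotein (ZAG). The members were 10 genes, named by symbol and taken from the array's platform annotation: the desmosomal cadherin genes Dsg1a, Dsg1b, Dsg2, Dsg3, Dsc1, Dsc2 and Dsc3, and the plaque genes Dsp, Jup and Pkp1. All 10 were found among 22180 genes with a symbol of their own, through 11 probes, and 0 probes with several symbols named a member. The samples were dorsal skin, taken at 13 weeks of age, of female mice of the dermatitis-prone inbred strain NC/Nga. Dermatitis had been induced in both groups over 6 weeks with an ointment of Dermatophagoides farinae (house dust mite) extract, in mice that were 6 weeks old at entry. The control group had the dermatitis alone, and the ZAG group also received recombinant ZAG for 6 weeks, at 1 µg/mL in the series' design text. That text names 3 mice in each group, but the data hold 1 array per group. The sources used here do not say what vehicle, if any, the control skin received, nor whether an array read RNA of 1 mouse or of a pool. No value below therefore has a replicate error, no difference was tested, and each describes these 2 arrays only.

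A desmosome is a button-like junction that holds neighbouring epidermal cells together and anchors their keratin filaments. Desmogleins and desmocollins are cadherins that span the gap between the cells. Inside each cell plakoglobin (Jup) and plakophilins bind the cadherin tails, and desmoplakin (Dsp) links this plaque to keratin. In epidermis Dsg2, Dsg3, Dsc2 and Dsc3 are mainly made in the basal and lower layers, and Dsg1 and Dsc1 in the upper, differentiating layers. Antibodies against Dsg3 and Dsg1 cause the blistering disease pemphigus, and loss of plakophilin 1 gives fragile skin.

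Of the 3 member groups, the plaque genes had the lowest median difference (ZAG minus control), while the cadherins were mixed. This describes the 3 plaque members only. The plakophilin genes outside the members differed by 0.11 (Pkp2), -0.27 (Pkp3) and -0.50 (Pkp4) in log2. Jup and Pkp1 were 1.64-fold and 1.60-fold lower with ZAG, and Dsp 1.32-fold lower. Among the cadherins Dsg3 was 1.60-fold lower, whereas Dsc3, its basal companion, differed by only 1.04-fold. Of the 10 members 8 were lower and 2 higher, with a median log2 difference (ZAG minus control) of -0.34. The comparison set was the 11090 genes in the upper part by mean level (log2 3.87, the median of all genes, or more). Of that set 47.6% were lower, and its median difference was 0.016.

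Sequences just upstream of the start sites of Jup and Dsp are shown because these are plaque genes that were both lower with ZAG. They come from RefSeq (GRCm38.p6), the 2 of the 10 members matched in the promoter table used here. Each is the 250 bases before the start on the gene's own strand, at chr11:100397791-100398040 on the minus strand for Jup and at chr13:38151044-38151293 on the plus strand for Dsp. Capitals mark GGGCGG on either strand, the core of the GC box read by Sp and KLF factors.
Jup: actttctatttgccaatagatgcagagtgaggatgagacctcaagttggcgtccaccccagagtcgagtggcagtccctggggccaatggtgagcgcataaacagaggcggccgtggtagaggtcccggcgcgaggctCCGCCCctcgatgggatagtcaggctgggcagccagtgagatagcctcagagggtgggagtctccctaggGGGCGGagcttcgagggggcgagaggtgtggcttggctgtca
Dsp: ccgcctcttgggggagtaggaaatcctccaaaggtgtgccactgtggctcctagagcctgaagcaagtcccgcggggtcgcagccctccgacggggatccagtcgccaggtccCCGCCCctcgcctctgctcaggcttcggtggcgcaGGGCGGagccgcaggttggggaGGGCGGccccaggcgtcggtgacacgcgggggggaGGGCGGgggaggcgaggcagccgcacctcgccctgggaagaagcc
The Jup window holds 2 such matches, which begin 112 and 42 bases before the start. The Dsp window holds 4, beginning 137, 102, 80 and 45 bases before it. Of 32851 upstream windows of the same length 32.7% hold at least 1. The Dsp window is 72.4% G and C and the Jup window 62.0%, against a median of 52.4% over all windows. CCAAT was found 2 times in the Jup window and 0 times in the Dsp window (33.8% of all windows hold it, on either strand). CACCC was found 2 times in Jup and 0 times in Dsp (52.0% of all windows). TGANTCA, the letters of an AP-1 site (6.75% of windows), CANNTG, an E-box (66.2%), and TATAAA (12.4%) were found 0 times in either window on either strand. Among all these matches 0 overlapped another, and a match describes the letters only.

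Among the plaque genes, Jup encodes plakoglobin, the armadillo protein that binds desmoglein and desmocollin tails. It was at log2 9.11 in control and 8.40 with ZAG (difference -0.72). Of the 11090 genes 3.03% had a difference at least as low. Pkp1, whose product plakophilin 1 clusters desmosomal cadherins in the upper epidermis, was at 9.77 in control and 9.10 with ZAG. Its difference of -0.68 was nearly that of Jup, and 3.63% of the genes were as low. Dsp, the keratin linker, was at 10.85 in control and 10.45 with ZAG (difference -0.40), a value reached by 11.0% of genes. All 3 plaque members were thus lower with ZAG, Dsp by the least.

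With 1 array per group, the only error that these data give is that between probes of the same gene. In the comparison set 591 genes have more than 1 probe, and between probes of such a gene the SD of the log2 difference was 0.244. This covers probe error and not the spread between mice. The differences of Jup, Dsg3 and Pkp1 were 2.93, 2.79 and 2.76 times this SD, and that of Dsp was 1.62 times. By more than this SD, 6 of the 10 members were lower and 1 was higher.

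**Figure D1:**
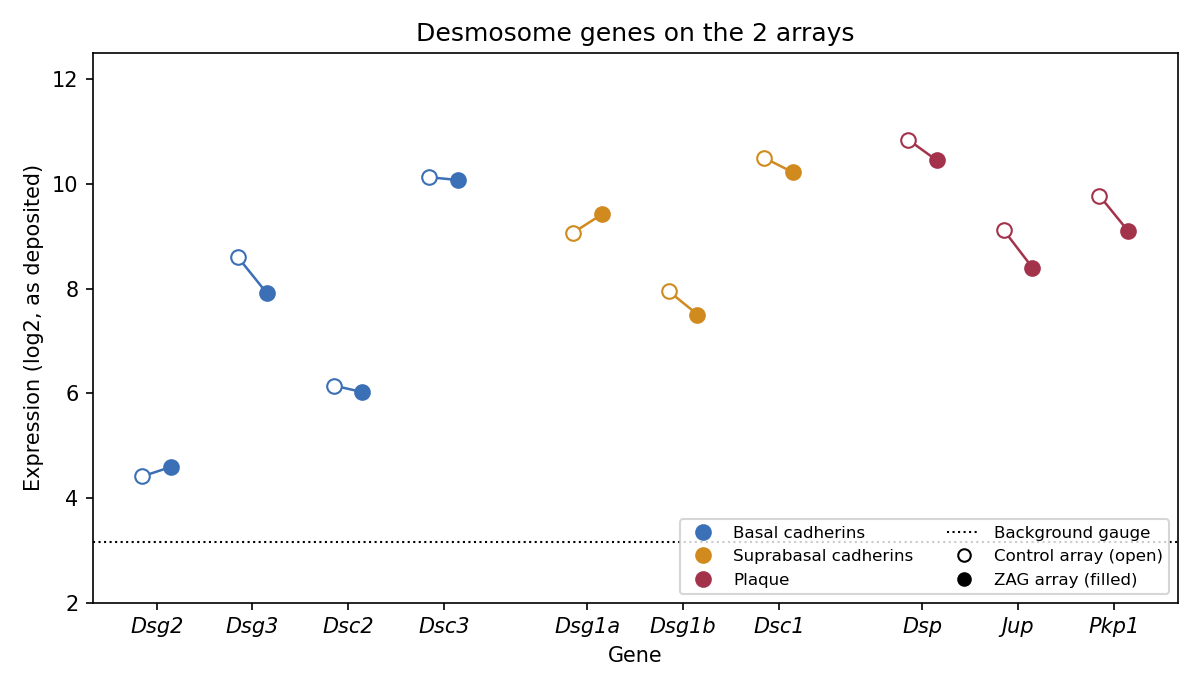
Deposited log2 expression (vertical axis) of the 10 desmosome genes (horizontal axis), with the control array as an open and the ZAG array as a filled circle, joined by a line, and the background gauge of 3.16 dotted. Every plaque gene and Dsg3 slopes down, Dsc3 is nearly level, and Dsg1a and Dsg2 slope up; heights of different genes are not comparable because each has its own probe.

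The basal cadherin genes did not share a direction. Dsg3, the desmoglein of the basal and lower spinous layers, was at 8.60 in control and 7.91 with ZAG (difference -0.68), a value that 3.48% of the genes reached. Dsc3, the main desmocollin of the same layers, was at 10.13 and 10.07 (difference -0.053). The ZAG-minus-control difference of Dsg3 was therefore 0.63 below that of Dsc3. From the SD between probes given above, the SD of such a comparison of 2 probes would be 0.345.

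Dsc2, a more widely made desmocollin, was at 6.15 in control and 6.02 with ZAG, within the SD between probes (difference -0.12). Dsg2, the desmoglein of simple epithelia, heart and the hair follicle, averaged 4.41 and 4.59 over 2 probes (difference 0.18). Its brighter probe read 6.12 in control and 6.47 with ZAG (difference 0.35). The other read 2.70 and 2.71, below the background gauge of 3.16, which is the 95th percentile of the levels of 1394 olfactory and vomeronasal receptor genes. The average for Dsg2 thus mixes a probe with signal and a probe at background, and the average was below the difference of the probe with signal. Over the 4 basal cadherins the median difference was -0.089.

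The suprabasal cadherin genes were mixed too. Dsc1, the desmocollin of the upper layers, was at 10.49 in control and 10.22 with ZAG (difference -0.28). Dsg1a and Dsg1b are neighbouring mouse copies of the desmoglein 1 gene, the target in superficial pemphigus. Dsg1a was at 9.07 in control and 9.42 with ZAG (difference 0.35), and was the member with the largest positive difference. Dsg1b was at 7.95 and 7.50, a difference of -0.44. The ZAG-minus-control differences of the copies thus lay 0.80 apart, with a mean of -0.047. Whether each probe reads its own copy only was not tested, so the direction of either copy is uncertain. The third copy, Dsg1c, was below the background gauge on both arrays (2.45 and 2.38), and no fold is given.

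Set side by side, the group medians were -0.089 for the 4 basal cadherins, -0.28 for the 3 suprabasal cadherins and -0.68 for the 3 plaque genes. The basal median was 0.19 higher than the suprabasal median, but by means the order turned, with -0.17 for basal and -0.12 for suprabasal cadherins. No direction between basal and suprabasal cadherins is therefore given. The median of these 3 plaque genes was lower than that of all 7 cadherins by 0.55, and by means by 0.45. The other plakophilin genes and the plakin genes Ppl and Evpl, given below, were not part of it. The ranges overlapped, since Dsg3 (-0.68) lay within the range of the plaque genes and Dsg1b (-0.44) was lower than Dsp (-0.40).

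Counted by size, 0 of the 10 members reached a 2-fold difference in either direction. In the comparison set 1.15% of genes were lower by 2-fold or more and 0.271% higher. At 1.5-fold, 3 members (Jup, Dsg3 and Pkp1) were lower, where 5.08% of those genes were, and 0 were higher, where 2.48% were. All 10 members belong to that set. Dsg1b, the next lowest member, was 1.36-fold lower. Since most members are bright, the share of genes at least 1.5-fold lower is also given by level. It was 5.24% over the 649 genes with log2 levels from 8 to 10, where 4 members lie, and 8.26% over the 109 genes above 10, where 3 members lie. In these ranges 5.55% and 5.50% of genes were at least 1.5-fold higher, and the median difference of all genes was 0.068 and 0.056.

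**Figure D2:**
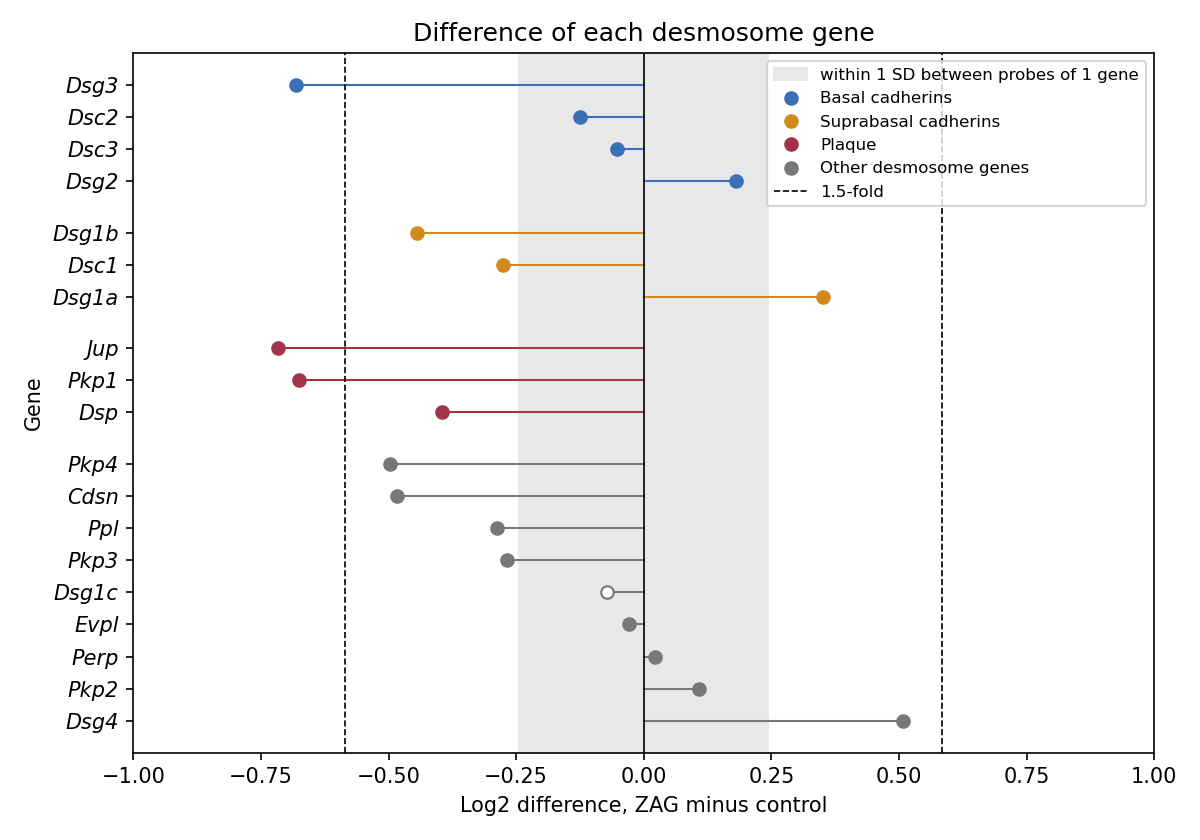
Log2 difference, ZAG minus control (horizontal axis), of each desmosome member and of 9 other desmosome genes (vertical axis), coloured by role, with 1.5-fold dashed and the band within 1 SD between probes of a gene (0.244) shaded. Jup, Pkp1 and Dsg3 lie beyond 1.5-fold on the lower side; the open circle (Dsg1c) was below background on both arrays.

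In the reference gene table the cadherin genes form a cluster on chromosome 18, in the order Dsc3, Dsc2, Dsc1, Dsg1c, Dsg1a, Dsg1b, Dsg4, Dsg3, Dsg2. Along it the differences were -0.053, -0.12 and -0.28 in the desmocollins, then, past the dim Dsg1c, 0.35 in Dsg1a and -0.44 in Dsg1b. They were 0.51 in Dsg4, -0.68 in Dsg3 and 0.18 in Dsg2. The 3 desmocollins, which are neighbours, were all lower, though Dsc3 and Dsc2 by less than the SD between probes, and the desmogleins held both directions, with those of Dsg1a and Dsg1b uncertain as above. The plaque genes Jup, Dsp and Pkp1, which were all lower, lie on chromosomes 11, 13 and 1.

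Of 9 further desmosome genes 6 were lower and 3 higher, and 0 of them passed 1.5-fold. In the comparison set 5.08% of genes were lower and 2.48% higher by 1.5-fold or more. Their median of -0.072 is the value of Dsg1c, which was below background, and without Dsg1c the median was -0.15, with 5 lower and 3 higher. Dsg4, the desmoglein of the hair shaft, was at 7.07 in control and 7.58 with ZAG (difference 0.51), the largest positive value of any desmosome gene listed. Cdsn, the gene of corneodesmosin that is added to desmosomes in the horny layer, was at 9.55 and 9.07 (difference -0.48). Perp, a membrane protein gene needed for desmosome assembly, was at 11.01 and 11.03 (difference 0.022, but negative under each of 3 rescalings).

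The other plakophilins differed from Pkp1 in size. Pkp4, a relative also found at adherens junctions, was at 6.00 in control and 5.51 with ZAG (difference -0.50). Pkp3, made in most epidermal layers, was at 7.34 and 7.07 (difference -0.27), so the ZAG-minus-control difference of Pkp1 was 0.41 below that of Pkp3. Pkp2, the plakophilin of heart and simple epithelia, was at 4.39 and 4.49 (difference 0.11). The plakin genes Ppl (periplakin, -0.29) and Evpl (envoplakin, -0.029), whose products tie desmosomes to the cornified envelope, were the remaining members of this list.

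Genes of the other cell contacts were set beside the desmosome genes. Adherens junctions join cells through classical cadherins and actin. Of 11 adherens junction genes 8 were lower and 3 higher (median -0.15), where 47.6% of the comparison set were lower. At least 1.5-fold lower was 1 of the 11, where 5.08% of that set were. The 1 gene was Nectin1, an adhesion receptor gene, at 8.25 in control and 7.46 with ZAG (difference -0.79). Cdh3, the P-cadherin gene, differed by -0.37 and Vcl, the vinculin gene, by -0.28. Ctnnb1, the gene of beta-catenin and the closest relative of plakoglobin, was at 9.07 in control and 9.23 with ZAG (difference 0.16). The ZAG-minus-control difference of Jup was thus 0.88 below that of Ctnnb1. Afdn (afadin, 0.21) and Nectin2 (0.14) were higher as well.

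Hemidesmosomes anchor basal cells to the basement membrane. All 8 measured hemidesmosome genes were lower with ZAG (median -0.51), where 47.6% of the comparison set were lower. At least 1.5-fold lower were 3 of the 8, where 5.08% of that set were. The 3 genes were Itgb4, the integrin beta 4 gene (6.60 in control and 5.73 with ZAG), and the laminin chain genes Lama3 (6.67 and 5.92) and Lamb3 (6.14 and 5.43). The hemidesmosome genes' median was lower than that of the basal desmosomal cadherins, and higher than that of the 3 plaque members.

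Among the keratins that desmosomes anchor, differences ranged from -1.97 to 0.66. Krt14, the basal keratin gene, was at 11.35 in control and 10.62 with ZAG (difference -0.73). Krt1 and Krt10, the pair of the upper layers, differed by -0.13 and 0.010, the latter negative under each rescaling. Krt6b, Krt16 and Krt6a, keratins of wounded and inflamed epidermis, had the largest differences of this list, -1.97, -1.67 and -1.03, while Krt17, a keratin of the same kind, differed by -0.083. Krt15, a keratin of resting basal and follicle stem cells, was 0.66 higher. Over the 9 measured keratin genes 7 were lower, where 47.6% of the comparison set were. The keratin median was -0.18 (-0.30 after quantile normalization), the value of Krt2, which was below the gauge on 1 array. Without Krt2 the median was -0.43, and the mean over the 9 genes was -0.57. Krt5 was not analysed here, because its probe carries several symbols.

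Genes whose products cut or spare desmosomes in the horny layer were also measured. Of 8 desquamation protease and inhibitor genes 6 were lower (median -0.36), where 47.6% of the comparison set were lower. At least 1.5-fold lower were 3 of the 8, where 5.08% of that set were. At least 2-fold lower were 2 of the 8, where 1.15% of that set were. The kallikrein genes Klk6 (7.65 in control and 6.63 with ZAG) and Klk14 (5.09 and 4.08) were 2.03-fold and 2.02-fold lower, and Klk8 was 1.52-fold lower. Klk5 (-0.42) was lower by less than 1.5-fold, and Klk7 was nearly level, at 10.01 in control and 9.95 with ZAG (difference -0.065). The inhibitor gene Spink5 differed by -0.29. The protease genes Prss8 (0.25) and St14 (0.087) were higher.

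Of 11 measured regulator genes of epidermal differentiation (transcription factors and the receptor gene Notch1) 9 were lower and 2 higher (median -0.16). The share of the comparison set that was lower was 47.6%. Klf4, a factor of barrier formation, was at 8.24 in control and 7.52 with ZAG (difference -0.72). Grhl3 (-0.51) and Tfap2a (-0.42) followed it, and the largest positive differences were 0.070 in Notch1 and 0.047 in Hopx.

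The labelled tissue was checked against markers, and markers of the cell types that whole skin holds differed between the arrays. All 5 measured basal keratinocyte markers were above background and lower with ZAG (median -0.55, mean level 8.24 in control and 7.68 with ZAG). Of these, 3 (Itga6, Itgb4 and Col17a1) also stand in the hemidesmosome list, and Krt14 and Trp63 in the keratin and regulator lists. Krt15, which is not in the marker list, was higher, as given above. Of 9 spinous and granular markers 7 were lower (median -0.18, mean level 9.83 and 9.68), with Tgm3 at -0.68 and the involucrin gene Ivl at 0.65. Beside both keratinocyte lists, 47.6% of the comparison set were lower. Fewer keratinocytes and less RNA per keratinocyte cannot be told apart in such bulk samples.

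Of 20 hair shaft and inner root sheath markers 19 were higher with ZAG (median 0.52, mean level 8.30 and 8.84). Beside this and the next lists, 47.6% of the comparison set were lower. The hair cadherin gene Dsg4, given above, differed by 0.51, and its relation to the hair markers was not tested. All 8 adipocyte markers were higher (median 0.43, mean level 6.99 in control and 7.43 with ZAG), as were 6 of 7 sebaceous gland markers (median 0.37, mean level 7.62 and 7.92). Of 6 melanocyte markers 5 were higher (median 0.30, mean level 6.68 and 6.99), and of 10 skeletal muscle markers 7 were (median 0.23, mean level 7.03 and 7.16). The muscle genes went far in both directions, from -1.69 in Myh2 to 1.59 in Myh4.

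In the other direction, 7 of 8 fibroblast markers (median -0.58, mean level 9.39 in control and 8.87 with ZAG) and 5 of 7 endothelial markers (median -0.37, mean level 5.47 and 5.13) were lower. Of 10 macrophage and neutrophil markers 9 were lower (median -1.22, mean level 6.95 and 5.68), where 47.6% of the comparison set were. In none of these marker lists was a measured gene below the background gauge on both arrays. Genes of follicle and other non-epidermal cells were thus read in both samples, and their part in the desmosome differences was not tested.

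**Figure D3:**
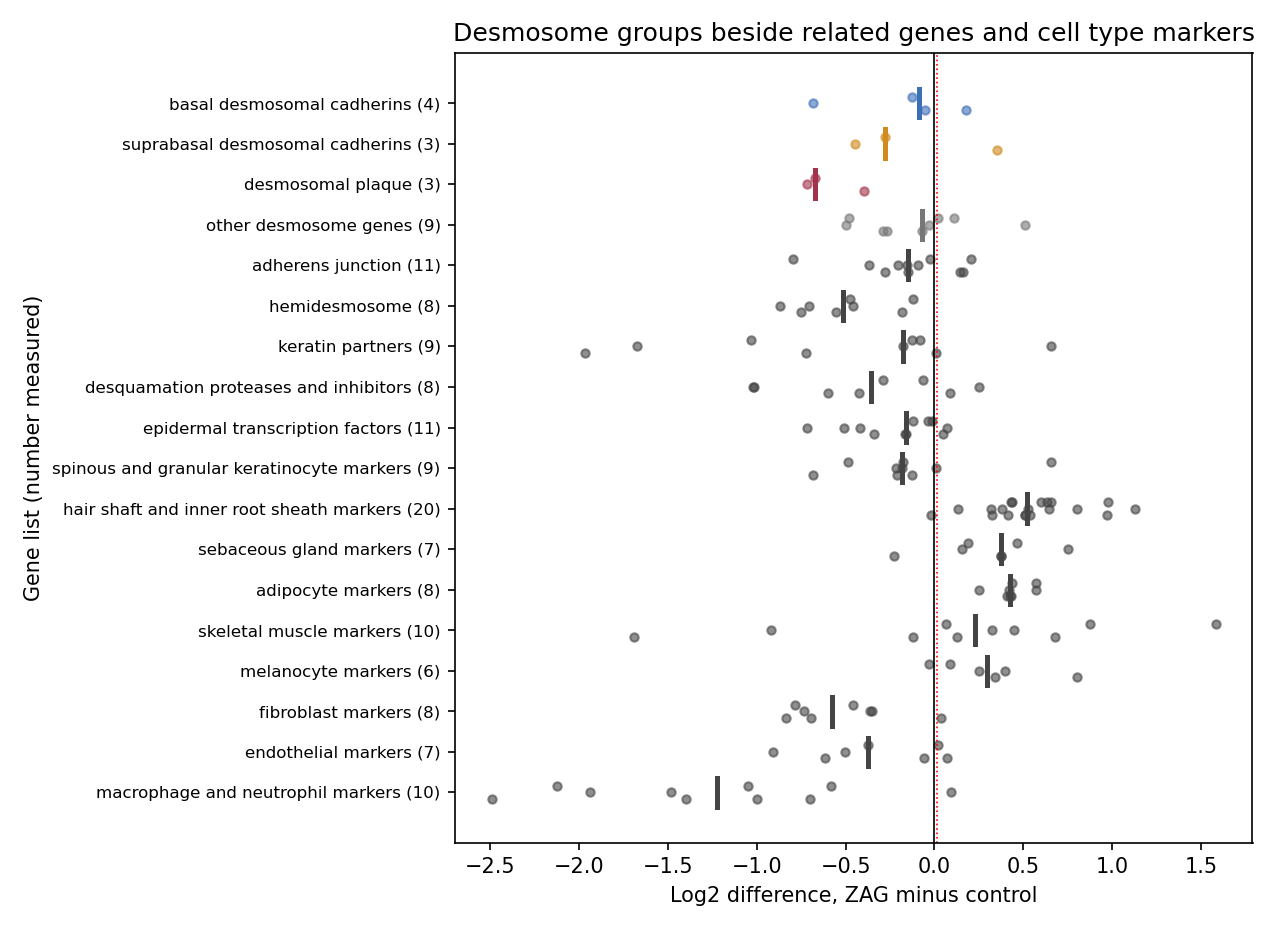
Log2 difference, ZAG minus control (horizontal axis), of each gene (points) and the median (bar) of the 3 desmosome groups, related lists and cell type markers (vertical axis, number measured in parentheses), with the median of the comparison set as a dotted red line. The plaque median (-0.68) lies below those of the cadherins, near the hemidesmosome (-0.51) and fibroblast (-0.58) medians, and the hair markers (0.52) lie on the other side.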

How the data were processed

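Affymetrix arrays read transcripts of NC/Nga dorsal skin, with 1 control array and 1 ZAG array. The deposited table is taken as log2 expression, a scale inferred from the numbers (0.889 to 12.75 in control and 0.866 to 13.19 with ZAG, medians 3.33 and 3.36). The sources used here do not give the background correction, summarisation, normalization or genome build. Per the labels' protocols, RNA was purified on columns, and sense cDNA was biotin-labelled. Of 33793 probes 23521 had 1 gene symbol and were used, 1814 with several and 8458 with none were left out, and probes of a gene were averaged. The log2 difference is ZAG minus control, without rescaling. Genes were counted past 2-fold or 1.5-fold where their mean level was at or above the median. Array number limits the precision, and with 1 array per group no difference was tested.

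The members and the gene lists were chosen with earlier results of these data known. The genes named are the members, the other desmosome genes, Krt1, Krt10 and Krt14, and up to 3 genes each way from each further list among those above background, of which the text gives a part. A few other genes of these lists, such as Klk5, Klk7, Spink5 and Krt17, are also named. No gene is named for a similar pattern, since over 2 arrays all genes correlate at 1 or -1. Alternatives were median centring, quantile normalization, loess (span 0.3), the brightest probe per gene, other level filters and means. The medians without Dsg1c and without Krt2 were added after seeing the data. The code was tested on simulated data. The software was matplotlib 3.10.9, statsmodels 0.14.6, pandas 2.3.3 and numpy 2.4.6 under Python 3.11.15.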

Additional observations from a re-analysis of the deposited data

How the results depend on the processing

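Rescaling kept the sign of each of the 10 members in all 3 scalings tried (median centring, quantile normalization and loess), and the largest move of a member was 0.11. Among the 9 further desmosome genes Perp turned from 0.022 to -0.0049, -0.071 and -0.094 under these scalings, which gave 7 lower and 2 higher. In the further lists Krt10, Foxn1, Dcn and Egfl7, all near 0, changed sign under at least 1 of them. The 3 members at least 1.5-fold lower and the counts of 0 past 2-fold were the same numbers under every scaling, probe choice and level filter. Loess, which takes out the small positive shift of bright probes, moved the median of all members to -0.44, of the suprabasal cadherins to -0.38 and of the spinous and granular markers to -0.29. Quantile normalization moved the keratin median to -0.30. With means in place of medians, the suprabasal cadherins were at -0.12 and the keratins at -0.57. By means, basal minus suprabasal cadherins turned from 0.19 to -0.046, plaque minus basal cadherins moved to -0.43 and plaque minus all cadherins to -0.45. With Dsg1a and Dsg1b averaged as 1 gene, chosen after seeing the data, the suprabasal median was -0.16 and that of all members -0.28. The causes of these moves were not tested. No paired analysis was possible because each group has 1 array, and no replicate could be left out. Among the desmosome genes, signal over background limits Dsg1c, below the gauge on both arrays, and Dsg2, with 1 of 2 probes below it.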
